A study of Homo sapiens with 2 samples.

Results

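GATA1 and 9 transcription factors that work beside it in blood cell formation were followed in HEL cells, a human erythroleukemia line, after exposure to L1. The 10 genes were chosen by symbol from general knowledge of these factors, though with earlier results of these data known. They make up 10 of the 61806 Ensembl genes in the count table. They are GATA1, GATA2, TAL1, LMO2, KLF1, NFE2, RUNX1, MYB, GFI1B and BCL11A. L1 is a derivative of 3,3′-diindolylmethane. HEL cells labelled as wild type were exposed to L1 at 1 µM for 24 h or to 0.5% DMSO as the vehicle for the same time, and mRNA captured on beads gave 1 library per condition. The share of DMSO in the L1 culture is not given. As each condition has 1 library, differences below have no replicate check and were not tested. A lower count can reflect fewer cells with an RNA or less of that RNA per cell, which cannot be told apart in bulk RNA.

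GATA1 is the zinc finger factor that drives erythroid and megakaryocytic differentiation, and GATA2 is its relative of earlier progenitors. Together with the basic helix-loop-helix factor TAL1, an E protein, the LIM-only bridge LMO2 and the adaptor LDB1, GATA1 forms a complex on erythroid enhancers. KLF1 and NFE2 activate globin and other red cell genes, RUNX1 and MYB act in progenitors and RUNX1 also in megakaryocytes, and GFI1B and BCL11A are zinc finger repressors, the latter known for keeping fetal globin genes silent in adult cells. The study asked whether L1 moves erythroid genes that lie downstream of the ETS factor FLI1, GATA1 among them.

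Raw counts totalled 32556872 for DMSO and 27135647 for L1. Counts were scaled by edgeR's TMM method, which sets the DMSO library 1.16 times as large as L1, and the deposited FPKM, levels divided by exon length and library size, hold the same ratio. The erythroid markers HBG1, HBG2, ALAS2 and EPOR and the megakaryocyte markers ITGA2B, GP9 and GP1BB were detected in both libraries, each with 356 counts or more. The epithelial, fibroblast and T cell markers summed to 11 counts or fewer per list and library, and CD3D, CD3E, MS4A1, EPCAM and KRT5 were at 0 in both. Among the others, the B cell marker CD79A had 113 and 60 counts (DMSO and L1), and the monocyte marker LYZ had 647 and 486. HEL is a cultured line, so these reads need not come from B cells or monocytes. Their part in the results was not tested.

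All 10 factors were detected in both libraries, from 619 counts for BCL11A in L1 to 17947 for RUNX1 in DMSO. Between the libraries the differences were small: none of the 10 was 2-fold apart in either direction. Of all 18123 genes with at least 10 counts in a library, 7.12% were at least 2-fold higher in L1 and 4.83% at least 2-fold lower. GFI1B was lower by 1.58-fold, TAL1 by 1.42-fold, LMO2 and MYB by 1.26-fold each, and NFE2 was higher by 1.36-fold. GATA1 itself was 1.06-fold higher in L1.

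**Figure D1:**
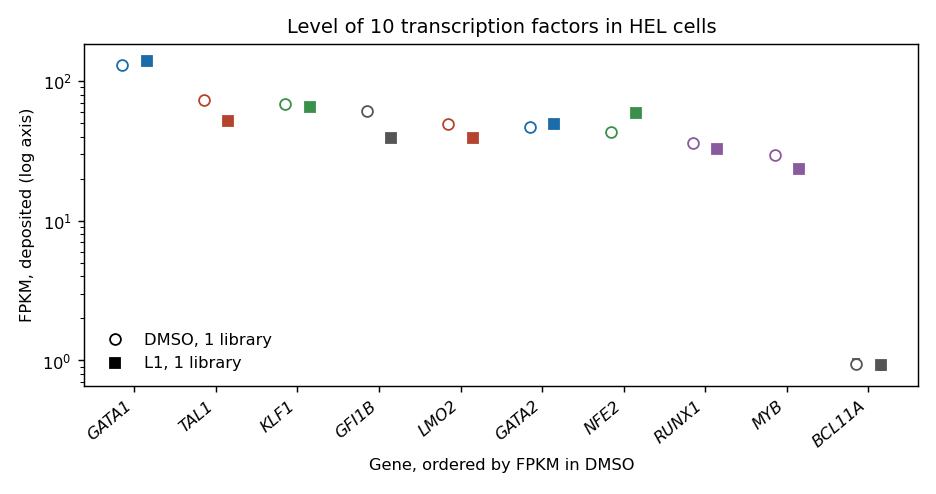
Deposited FPKM (log axis) of the 10 factors in the DMSO library (open circles) and the L1 library (filled squares), ordered by the DMSO value and coloured by role. Bars are 95% counting intervals and are mostly smaller than the symbols. GATA1 stands highest at 131 and 139 FPKM, and BCL11A lowest at 0.951 and 0.921.

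Per length of exon, GATA1 stood highest of the 10 in both libraries and BCL11A lowest. GATA1 had 131 FPKM in DMSO and 139 in L1, which was 1.78 times the next factor in DMSO (TAL1) and 2.15 times the next in L1 (KLF1). BCL11A had 0.951 and 0.921 FPKM, so the 10 factors spanned a 138-fold range of level in DMSO and a 151-fold range in L1. The other 8 lay between 29.6 and 73.7 FPKM in DMSO, in the order TAL1, KLF1, GFI1B, LMO2, GATA2, NFE2, RUNX1 and MYB. In L1 they lay between 23.6 and 64.7 FPKM, in the order KLF1, NFE2, TAL1, GATA2, LMO2, GFI1B, RUNX1 and MYB. NFE2 moved up in this order, from the 7th place of the 10 to the 3rd, while GFI1B moved from the 4th to the 7th. LMO2 (39.1 FPKM) and GFI1B (38.9 FPKM) in L1 were the only neighbours in either order whose counting intervals overlapped. Counting error is the only error these intervals cover.

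This order depends on the length that the level is divided by. The FPKM of RUNX1 corresponds to 15574 bases, all its annotated exons merged, while its longest principal transcript holds 6222 bases. With scaled counts divided by the principal transcript length, in the same unit as FPKM, RUNX1 took the 3rd place in both libraries instead of the 8th, at 90.1 in DMSO and 80.9 in L1. On that scale GFI1B (152) stood above GATA1 (135) in DMSO, and GATA1 (143) above GFI1B (96.2) in L1. BCL11A, whose FPKM rests on 24514 bases, was lowest on this scale too, at 3.05 in DMSO and 2.95 in L1. Which transcripts the cells used was not measured, and ratios between the libraries for 1 gene do not depend on its length.

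**Figure D2:**
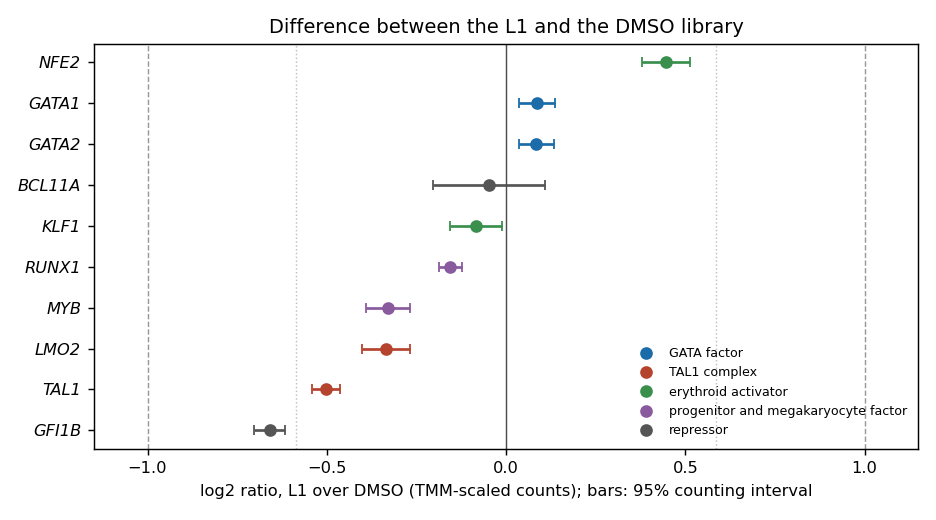
Log2 ratio of L1 over DMSO for the 10 factors from TMM-scaled counts, with exact 95% counting intervals and 1 library per condition. Dashed lines mark 2-fold and dotted lines 1.5-fold. GFI1B lies past the 1.5-fold line on the lower side, NFE2 is the highest at 0.45, and the interval of BCL11A spans 0.

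The promoters of GATA1, TAL1, KLF1 and GFI1B are shown because the first 3 stand highest among the 10 by FPKM in DMSO, GFI1B and TAL1 had the largest differences, and GATA motifs are the letters that GATA1 and GATA2 recognise. RefSeq windows on GRCh38.p14 matched 8 of the 10 genes, all but NFE2 and LMO2, with 15 windows in all. Each line gives the 250 bases before an annotated start, 5′ to 3′ on the strand of the gene, and capitals mark a GATA motif on either strand. The motif was searched as AGATAA and, with a last G instead, as AGATAG, and in the forms that open with T, which are TGATAA and, again with a last G, TGATAG. These forms do not contain one another.
GATA1 (chrX:48786340-48786589, plus strand): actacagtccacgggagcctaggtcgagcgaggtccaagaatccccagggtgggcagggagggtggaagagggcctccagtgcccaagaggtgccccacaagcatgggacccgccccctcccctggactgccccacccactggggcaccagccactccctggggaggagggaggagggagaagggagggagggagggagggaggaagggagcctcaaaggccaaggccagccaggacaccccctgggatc
TAL1 (chr1:47232336-47232585, minus strand): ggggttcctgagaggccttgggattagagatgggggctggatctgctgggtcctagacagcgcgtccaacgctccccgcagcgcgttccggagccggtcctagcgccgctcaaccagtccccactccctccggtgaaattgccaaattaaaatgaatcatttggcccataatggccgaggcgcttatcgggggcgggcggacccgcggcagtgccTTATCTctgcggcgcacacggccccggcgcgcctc
KLF1 (chr19:12887202-12887451, minus strand): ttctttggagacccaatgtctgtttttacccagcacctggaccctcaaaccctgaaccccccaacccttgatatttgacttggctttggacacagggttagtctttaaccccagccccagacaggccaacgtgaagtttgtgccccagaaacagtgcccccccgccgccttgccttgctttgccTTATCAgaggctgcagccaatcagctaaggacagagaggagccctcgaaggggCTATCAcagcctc
GFI1B (chr9:132978444-132978693, plus strand): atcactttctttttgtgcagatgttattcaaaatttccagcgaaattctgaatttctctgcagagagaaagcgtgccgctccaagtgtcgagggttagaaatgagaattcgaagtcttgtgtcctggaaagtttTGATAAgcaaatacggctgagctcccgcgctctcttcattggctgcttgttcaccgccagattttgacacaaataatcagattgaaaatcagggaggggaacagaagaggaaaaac

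The KLF1 window held 2 matches, which begin 66 and 13 bases before the start. The TAL1 window held 1, which begins 35 bases before the start, and the downstream GFI1B window held 1, at 116 bases before the start. The GATA1 window and the windows of GATA2, RUNX1, MYB and BCL11A held 0, as did the other TAL1 window and the other GFI1B window. In all, 3 of the 15 windows (20%) held a match, against 22.3% of all 35116 windows of this length. By gene, 3 of 8 (37.5%) had a match in any window, against 26.2% of 27305 genes. A match is a description of the letters, and binding was not measured. Of these 3 genes, TAL1 (log2 ratio -0.50) and GFI1B (-0.66) were the lowest of the 10 and KLF1 (-0.08) was near 0. NFE2 and LMO2 had no window, and a link of motif to ratio was not tested.

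The GATA factors were almost level between the libraries. GATA1 (ENSG00000102145, chromosome X from 48786554 to 48794311 of GRCh38 in GENCODE release 29, plus strand) had 6469 counts in the vehicle library against 5923 after L1, and 131 against 139 FPKM. After scaling its log2 ratio of L1 over DMSO was 0.09, with an exact 95% Clopper-Pearson interval from 0.03 to 0.14. GATA2 (ENSG00000179348, chromosome 3 from 128479427 to 128493185, minus strand) gave 7278 counts without L1 and 6657 with it, at 46.6 and 49.4 FPKM. The GATA2 log2 ratio was 0.08 (interval 0.04 to 0.13). In erythroid differentiation GATA1 replaces GATA2 at shared sites and GATA2 mRNA declines, so the ratio of both genes within a library was compared, which needs no scaling. There were 0.889 GATA1 counts per GATA2 count in DMSO and 0.890 in L1. The log2 change of this ratio was 0.0015, with an exact conditional interval from -0.07 to 0.07. The interval includes 0.

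The TAL1 complex was uneven. TAL1 (ENSG00000162367, chromosome 1 from 47216290 to 47232220, minus strand) went from 13361 counts under DMSO to 8138 under L1, and from 73.7 to 52.0 FPKM. TAL1 was thus 1.42-fold lower, a log2 ratio of -0.50 (interval -0.54 to -0.46). LMO2 (ENSG00000135363, chromosome 11 from 33858576 to 33892289, minus strand) went from 4535 to 3102 counts and from 49.3 to 39.1 FPKM. For LMO2 that gives -0.33 on the log2 scale (interval -0.40 to -0.27). LDB1, the dimerising adaptor, had 11925 and 10050 counts, and the E protein gene TCF3 had 1525 and 1381. The counting intervals of both include 0. Of the other E protein genes, TCF12 had 2831 and 2317 counts and an interval that includes 0. TCF4, with 1401 and 1392 counts, was higher at a log2 ratio of 0.20 (interval 0.10 to 0.31). Against LDB1 within each library, TAL1 went from 1.12 counts per LDB1 count in DMSO to 0.810 in L1, a log2 change of -0.47 (interval -0.52 to -0.41). CBFA2T3, which encodes the corepressor ETO2 that TAL1 complexes carry, was lower to almost the same degree as TAL1, with 7582 counts for DMSO against 4678 for L1. The log2 change of the TAL1 to CBFA2T3 ratio was -0.02, with an interval from -0.08 to 0.05. Exons of an antisense gene, AL135960.1, share 845 bases with TAL1 on the opposite strand, and no source says if reads were counted by strand, so reads of either gene cannot be told apart there. AL135960.1 held 91 and 77 counts, and the log2 ratio of both genes summed was -0.50 as well.

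The erythroid activators KLF1 and NFE2 went apart. KLF1 (ENSG00000105610, chromosome 19 from 12884422 to 12887199, minus strand) went from 3519 to 2864 counts and from 68.6 to 64.7 FPKM. On the log2 scale KLF1 stood at -0.08 (interval -0.16 to -0.01), and with total counts or upper quartile scaling its interval includes 0. NFE2 (ENSG00000123405, chromosome 12 from 54292111 to 54301121, minus strand) went from 3272 to 3844 counts and from 43.6 to 59.3 FPKM. It was the only one of the 10 with a higher raw count in L1, the shallower library, and its log2 ratio was 0.45 (interval 0.38 to 0.51). NFE2 binds DNA as a dimer with a small MAF protein. Of the 3 small MAF genes, MAFG was higher in L1, from 1259 to 1481 counts (log2 ratio 0.45), and the ratio of NFE2 to MAFG was 2.60 in both libraries. MAFF went from 355 to 179 counts (log2 ratio -0.77) and MAFK from 451 to 229 (log2 ratio -0.76). With CBFB, the partner of RUNX1, these 3 genes form a list of 4 dimer partners with a median of -0.48. MAFF and MAFK passed 1.5-fold on the lower side and 0 passed 2-fold. Among all 18123 genes, 11.4% were at least 1.5-fold lower and 4.83% at least 2-fold lower.

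RUNX1 and MYB were lower in L1. RUNX1 (ENSG00000159216, chromosome 21 from 34787801 to 36004667, minus strand) had the most counts of the 10, 17947 under DMSO against 13897 under L1, at 36.3 and 32.5 FPKM. This is -0.16 on the log2 scale (interval -0.19 to -0.12). CBFB, its obligate partner, had 961 and 719 counts and a log2 ratio of -0.21 (interval -0.35 to -0.06). There were 18.7 RUNX1 counts per CBFB count in DMSO and 19.3 in L1, a change of 0.05 (log2) whose interval, -0.10 to 0.19, includes 0. MYB (ENSG00000118513, chromosome 6 from 135181315 to 135219173, plus strand), a proto-oncogene of cycling progenitors, went from 5180 to 3556 counts and from 29.6 to 23.6 FPKM. MYB was at -0.33 on the log2 scale (interval -0.39 to -0.27). MYB-AS1, which overlaps it on the opposite strand, had 15 and 12 counts.

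Of the repressors, GFI1B held the largest difference of the 10, and the interval of BCL11A includes 0. GFI1B (ENSG00000165702, chromosome 9 from 132944000 to 132991687, plus strand), needed for erythroid and megakaryocytic maturation, went from 11915 to 6507 counts and from 61.4 to 38.9 FPKM. Its log2 ratio was -0.66 (interval -0.70 to -0.62). Exons of GFI1B share 349 bases with TSC1 on the opposite strand, which had 1551 and 1456 counts, and the log2 ratio of both genes summed was -0.54. This sum holds all TSC1 counts, not only those of the shared bases. TSC1 alone had a log2 ratio of 0.12 (interval 0.02 to 0.23). Of the 31-base words of GFI1B, 10.1% occur in transcripts of other genes, against 13.6% for TAL1 and under 5% for each of the other 8. GFI1, the closest relative of GFI1B, had few counts but went the other way, from 92 in DMSO to 378 in L1 (log2 ratio 2.25, interval 1.92 to 2.60), and from 0.513 to 2.44 FPKM. GFI1B had 130 counts per GFI1 count in DMSO and 17.2 in L1. The log2 change of that ratio was -2.91, with an interval from -3.26 to -2.58. GFI1B still stood 15.9 times above GFI1 in FPKM in the L1 library. BCL11A (ENSG00000119866, chromosome 2 from 60450520 to 60555154, minus strand) had 741 and 619 counts, at 0.951 and 0.921 FPKM. Its log2 ratio was -0.05 and its interval, -0.20 to 0.11, includes 0; with total counts the ratio was 0.0032.

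Counting intervals lay below 0 for 6 of the 10 factors (TAL1, KLF1, RUNX1, LMO2, MYB and GFI1B) and above 0 for 3 (GATA1, GATA2 and NFE2). Among the 18123 genes, 28.6% lay wholly below 0 and 26.8% wholly above. Among the 12365 genes with at least 100 counts in a library, which are nearer to the factors in depth, the shares were 36.7% and 30.5%. A counting interval off 0 is therefore common at this depth and compares these libraries, not the conditions. At 1.5-fold, 1 of the 10 passed on the lower side (GFI1B) and 0 on the higher side. GFI1B and TSC1 summed, with all TSC1 counts included, had a log2 ratio of -0.54, which falls short of 1.5-fold. The background at 1.5-fold was 11.4% lower and 13.8% higher over the 18123 genes, and 8.22% lower and 7.38% higher over the 12365. With a prior count of 2, the median log2 ratio of the 10 was -0.12, against -0.0040 over the 18123 genes and -0.03 over the 12365. The log2 ratios of single genes ran from -0.66 to 0.45. All 10 factors passed the minimum count.

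Set against GATA1 within each library, 6 of the other 9 were lower in L1 with an interval wholly below 0, and 1, NFE2, was higher. By the same ratio to GATA1, 35.3% of the 18122 other genes were lower and 19.6% higher, and 45.7% and 21% of the 12364 with at least 100 counts. GATA1 itself was above the median of all genes, so a lower ratio to it was common. These ratios were chosen after the values were seen and do not depend on the scaling of the libraries. There were 2.07 TAL1 counts per GATA1 count in DMSO and 1.37 in L1 (log2 change -0.59, interval -0.65 to -0.52). For GFI1B the ratio went from 1.84 to 1.10 (log2 change -0.75, interval -0.81 to -0.68). With TSC1 summed in, the GFI1B change was -0.63. For LMO2 and MYB the log2 change was -0.42 each. The ratio of NFE2 to GATA1 went from 0.506 to 0.649 (log2 change 0.36, interval 0.27 to 0.44). The intervals of GATA2 and BCL11A included 0.

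**Figure D3:**
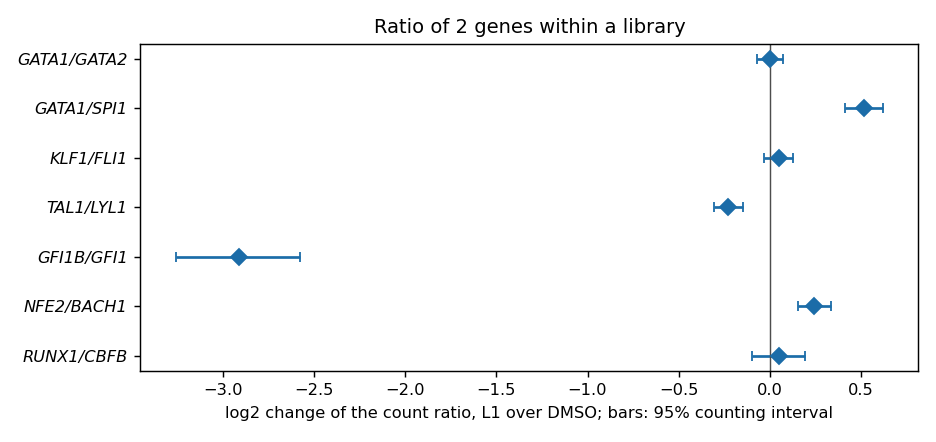
Log2 change, from DMSO to L1, of the ratio of 2 genes counted within each library, with exact conditional 95% counting intervals. GATA1 to GATA2, KLF1 to FLI1 and RUNX1 to CBFB have intervals that include 0, and GFI1B to GFI1 lies at -2.91.

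Factors that oppose or resemble the 10 gave scaling-free comparisons. SPI1, which encodes PU.1, a factor of myeloid cells that antagonises GATA1, went from 2508 to 1605 counts (log2 ratio after scaling -0.43). GATA1 had 2.58 counts per SPI1 count in DMSO and 3.69 in L1, a log2 change of 0.52 (interval 0.41 to 0.62). FLI1, which promotes megakaryocytic over erythroid fate where KLF1 does the reverse, went from 15763 to 12403 counts (log2 ratio after scaling -0.13). The log2 change of the KLF1 to FLI1 ratio was 0.05, and its interval from -0.03 to 0.13 includes 0. LYL1, the closest relative of TAL1, had 4206 and 3001 counts and a log2 ratio of -0.27. It was lower to a smaller degree than TAL1, since the TAL1 to LYL1 ratio had a log2 change of -0.23 (interval -0.31 to -0.15). BACH1, a repressor that competes with NFE2 for small MAF partners, had 4978 and 4934 counts. After scaling BACH1 was higher in L1, at a log2 ratio of 0.20 (interval 0.14 to 0.26). The NFE2 to BACH1 ratio had a log2 change of 0.25 (interval 0.16 to 0.33).

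**Figure D4:**
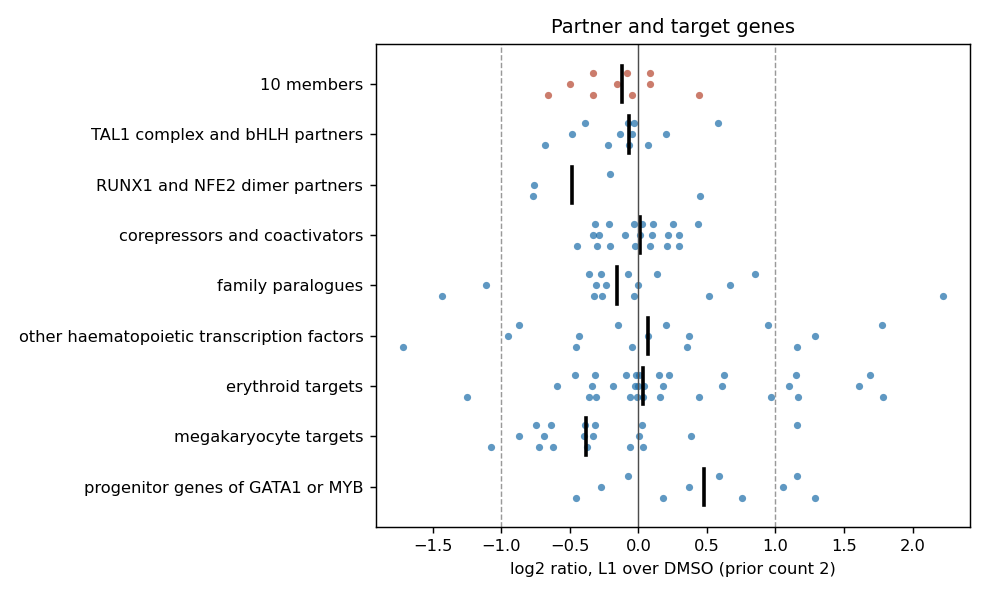
Log2 ratio of L1 over DMSO (prior count 2) for the 10 factors and for the genes of each list with at least 10 counts in a library, with 1 point per gene and a black bar at the median. The megakaryocyte targets have a median of -0.38 and the progenitor genes one of 0.48 (0.27 over those with at least 100 counts in a library), and dashed lines mark 2-fold.

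Among the cofactors listed in this paragraph, ZFPM1 alone passed 1.5-fold, and RUNX1T1 lay at that line. Among 12 partners of the TAL1 and GATA1 complexes the median log2 ratio was -0.07, with 0 members past 2-fold and 1, ZFPM1, past 1.5-fold on the lower side. ZFPM1 encodes FOG1, the cofactor that GATA1 binds directly, and went from 1874 to 1008 counts, or -0.68 on the log2 scale (interval -0.79 to -0.57). BRD3 (log2 ratio -0.39), a reader of acetylated GATA1, was lower. RUNX1T1 (0.58, interval 0.44 to 0.73), a relative of CBFA2T3, was higher by 1.4995-fold. Among 21 corepressor and coactivator genes, which include the NuRD and CoREST complexes, the median was 0.01 and 0 passed 1.5-fold. For both lists, the shares over all 18123 genes were 11.4% lower and 13.8% higher at 1.5-fold, and 4.83% and 7.12% at 2-fold. The farthest were GSE1 at -0.45 and MED1, a Mediator subunit, at 0.43. GATAD2B (-0.33) and RBBP4 (-0.32, with 29.6% shared words), both of NuRD, were lower, and RCOR1 (0.29) of CoREST was higher. The genes of neither complex all went the same way. MTA2 of NuRD was higher at 0.26 (interval 0.20 to 0.31). HMG20B of CoREST had -0.10, with an interval that includes 0. Among catalytic subunits, HDAC1 had a log2 ratio of 0.30, HDAC2 one of 0.10 and the demethylase gene KDM1A one of 0.10 (interval 0.05 to 0.15).

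Paralogues and other haematopoietic factors spread wider. Of 16 paralogues kept, GFI1 was the 1 past 2-fold on the higher side, and 2 passed on the lower side, TAL2 with 15 and 5 counts and BCL11B with 35 and 10, and the median was -0.16. KLF10, which responds early to TGF-beta, was higher at a log2 ratio of 0.67, and NFE2L2, which encodes NRF2, at 0.52. RUNX3 (-0.37), NFE2L1 (-0.33) and MYBL2 (-0.31) were the lowest with at least 100 counts, and 11 of the 16 lay below 0. Among all 18123 genes, 9125 lay below 0. Of 15 other haematopoietic factors, 3 were past 2-fold on the higher side and 1 on the lower. The shares over all 18123 genes, for this list and the paralogues, were 7.12% higher and 4.83% lower at 2-fold. MYC, a transcription factor of cell growth, went from 724 to 1527 counts (log2 ratio 1.29), and STAT5B, which signals below JAK2, from 3521 to 5864 (0.95). HHEX, a homeobox gene of blood and endothelium, had a log2 ratio of 0.37. The other 3 past 2-fold had few counts: CEBPA 14 and 46, HLF 4 and 10, and HOXA9, the lower one, 24 and 5. IKZF1, a lymphoid and erythroid regulator, went from 2271 to 1011 counts (log2 ratio -0.95). MEIS1, a homeobox gene of stem cells and megakaryocytes, went from 2730 to 1284 (log2 ratio -0.88).

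Of 31 known erythroid targets kept, 6 passed 2-fold on the higher side (HBA1, HBA2, HBG1, HBE1, HBZ and GYPB) and 1 on the lower, and at 1.5-fold 9 and 2 passed. The 6 genes have from 23.1% (GYPB) to 83.2% (HBA2) of their 31-base words in transcripts of other genes, HBE1 81.6% and HBZ 47.7%, so their single values are uncertain. HBZ had 19 and 57 counts. The median of the list was 0.03, and -0.0072 over the genes with under 20% shared words. Both alpha-globin genes summed, which share most of their sequence, had a log2 ratio of 1.16, and both gamma-globin genes summed had 0.73. ALAS2, the first enzyme of erythroid heme synthesis, went from 655 to 1108 counts. The gene on the lower side was TFRC, the transferrin receptor, which went from 17721 to 6420 counts (log2 ratio -1.25). E2F2, a cell cycle factor, had a log2 ratio of -0.59, and the survival gene BCL2L1 one of -0.46, with 39.6% shared words. Of 18 megakaryocyte targets kept, 1 passed 2-fold on each side, THBS1 with 45 and 89 counts on the higher and GP1BB on the lower. At 1.5-fold 7 passed on the lower side and THBS1 alone on the higher, and the median was -0.38. Over all 18123 genes, 7.12% were higher and 4.83% lower at 2-fold, and 13.8% and 11.4% at 1.5-fold. ITGB3 (log2 ratio -0.73) and GP1BB (-1.08) were lower, though 51.0% and 100% of their 31-base words occur in transcripts of other genes. TREML1 went from 148 to 69 counts. TUBB1, the platelet tubulin gene, had a log2 ratio of 0.38. ITGA2B, the partner of ITGB3, had 40168 and 35288 counts, which after scaling is 0.03 on the log2 scale.

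Of 10 progenitor genes that GATA1 is known to hold down or MYB to hold up, 3 passed 2-fold on the higher side. On the lower side 0 passed, and the shares over all 18123 genes were 7.12% higher and 4.83% lower. The median was 0.48, but 0.27 over the genes with at least 100 counts in a library and 0.37 over those with at least 10 in both. KIT, the stem cell factor receptor that GATA1 silences during maturation, went from 8361 to 14979 counts and from 23.2 to 48.2 FPKM (log2 ratio 1.05, interval 1.02 to 1.09). MYC is on this list too, and the third gene was HLF with 4 and 10 counts. The HLF interval, -0.26 to 3.66 on the log2 scale, includes 0. The mitotic cyclin gene CCNB1, a MYB target, had a log2 ratio of 0.76. BCL2, another MYB target, had -0.46 and the cyclin gene CCND2 -0.08. The paper reports cell cycle arrest at the stages before and during mitosis, and apoptosis, after the same exposure. Whether either had a part in the CCNB1 value, or in others of this list, was not tested. In the L1 library GATA1 was 1.06-fold higher and MYB 1.26-fold lower. The list joins genes of both kinds, and a link of its values to either factor was not tested.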

How the data were processed

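HEL cells were sequenced as 1 DMSO library and 1 L1 library, with 32556872 and 27135647 counts. The authors aligned reads with HISAT2 2.1.0, the submitters' notes give hg38 as the build, and the deposited raw counts per Ensembl gene were used without change. For 13924 genes FPKM were deposited too, and 66.4% of those matched to GENCODE correspond to merged exon lengths within 2%. The submitters' processing notes name fastp 2.0 and StringTie as well; the counting program and annotation are not given in the sources used here.

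TMM factors came from edgeR 4.0.16 in R 4.3.3, and further steps used Python 3.11.15, numpy 2.4.6, pandas 2.3.3 and scipy 1.17.1. Single-gene ratios carry no prior count and a 95% Clopper-Pearson interval (exact) for counting error alone, since reads without molecular identifiers are not independent molecules. Ratios of 2 genes carry the exact conditional interval of the odds ratio. Summaries over lists used a prior count of 2 and left out genes under 10 counts in both libraries. Positions, exon overlaps and shared 31-base words were taken from GENCODE release 29, which holds 58254 of the 61806 identifiers. Scripts were tested on simulated libraries.

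The members, lists and pairs were chosen with earlier results of these data known. Named were all members, both genes of each pair, overlapping genes, and in each list up to 3 genes with the highest and 3 with the lowest ratio among those with at least 100 counts; other genes named were chosen after their values were seen, and a few single genes of the lists are not reported here. Alternatives were total counts, DESeq2 1.42.0 size factors, upper quartile scaling, FPKM, prior counts of 0.5 and 5, other minimum counts, 1.5-fold, and summed overlapping genes.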

Additional observations from a re-analysis of the deposited data

How the results depend on the processing

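No paired analysis was possible because DMSO and L1 have a single library each. No alternative turned the direction of a member whose counting interval excluded 0; BCL11A, whose interval includes 0, went to 0.0032 with total counts. Intervals wholly below 0 numbered 5 instead of 6 with total counts and with upper quartile scaling. Total counts moved each log2 ratio of L1 over DMSO by 0.05, upper quartile scaling by 0.04 and DESeq2 size factors by -0.03. The FPKM hold the same library ratio as TMM, so their ratios could not differ. Of 43 values of single members, 10 were these FPKM values. Of the 43, 6 left the member's counting interval, among them GFI1B at -0.54 when summed with all TSC1 counts. The number of members at least 2-fold lower went from 0 to 1 at a threshold of 1.5-fold, which is a looser threshold by construction. The median of the 10 members ran from -0.15 to -0.07. Of the lists, the median of the 4 dimer partners ran from -0.51 to -0.43, that of the megakaryocyte targets from -0.41 to -0.33 and that of the progenitor genes from 0.27 to 0.53. The lists of erythroid targets and of corepressors and coactivators have medians that cross 0 over the alternatives. The place of RUNX1 among the members by level moved from the 8th to the 3rd (3 in DMSO and 3 in L1) with the principal transcript length, an alternative added after seeing the data, as were summed globin copies, genes with under 20% shared words and ratios to GATA1. How much parallel cultures vary is unknown here.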
